A study of Mus musculus with 8 samples.

Results

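A set of 9 enzymes that build heparan sulfate was listed, namely Ext1, Ext2, Extl2, Extl3, Ndst1, Ndst2, Hs2st1, Hs6st1 and Glce, and their mRNAs were followed in mouse MII oocytes of different maternal age. Of the 9 genes, 7 were among the 10530 genes of the input table, 6 were among the 8898 genes of the HA table and the same 6 were among the 8537 genes of both tables. Extl2 and Ndst2 have no row in either table and are not analysed here. Ext2 was chosen by its measured difference between old and young input libraries, so that its input values, and ratios that contain them, are given as a description with no test. The other 8 genes were listed for their function.

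Each of 4 pools held 200 MII oocytes, and 2 pools came from young females aged 1 month and the other 2 from old females, retired breeders aged 12 to 15 months. All mice, young and old, were RiboTagF/F;Zp3-Cre on the C57BL/6 background, in which the Zp3 promoter directs Cre, and with it the HA-tagged ribosomal protein Rpl22, to growing oocytes. All received 5 IU PMSG followed 48 h later by 10 IU hCG, and the oocytes, arrested at the second meiotic metaphase (MII), were taken 13 h after the hCG injection. A portion of 10% of the cleared lysate of a pool served as input for total mRNA, while HA immunoprecipitation of the remainder gave ribosome-bound mRNA, so that the pools yielded 8 libraries. An old and a young pool are therefore single pooled samples, and p-values measure the spread between pools, which the labels do not tie to separate collections.

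Heparan sulfate is a sulfated sugar chain carried by proteoglycans at the cell surface and in the extracellular matrix, where it binds growth factors and other ligands. Its synthesis takes place mostly in the Golgi apparatus. A short linker of sugars is first attached to a core protein, EXTL3 adds the first chain-specific sugar, and a complex of EXT1 and EXT2 polymerises the chain from alternating glucuronic acid and N-acetylglucosamine. The chain is then modified by N-deacetylase/N-sulfotransferases such as NDST1, by the C5-epimerase GLCE and by O-sulfotransferases such as HS2ST1 and HS6ST1. EXT1 and EXT2 act together, and loss of either is known to impair chain elongation. In the ovary, heparan sulfate proteoglycans are best known from the follicle cells and the follicular fluid that surround the oocyte.

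The deposited values are CPM, a share of the reads of a library after scaling by the authors, and the reads behind them could be recovered. There were 37817382 to 59688578 reads on the genes of the HA libraries and 38276453 to 60052814 on those of the input libraries, so that 3 reads corresponded to at most 0.111 CPM in HA and 0.0788 CPM in input. These limits cover counting error only, since the reads carry no molecular identifiers. In these pooled samples, fewer cells of a type and less mRNA per cell cannot be told apart. The 10 oocyte markers summed to 9358 and 8848 CPM in old and 10144 and 10158 CPM in young inputs. In HA they summed to 12220 and 19275 CPM in old and 11424 and 12531 CPM in young pools. Of 16 cumulus and granulosa markers, 11 had an input row, with sums of 158 to 332 CPM in old and 249 to 331 CPM in young pools, and 5 had an HA row, with sums of 92.4 to 144 CPM in old and 201 to 210.3 CPM in young pools. None of the 16 was at 0 in a library where it had a row, and Foxl2, Amh and Amhr2 had no row. Cyp19a1 was the largest of the 5 in HA, at 80.4 and 69.7 CPM in old and 142 and 174 CPM in young pools. Ptgs2 was also lower in both old HA libraries, whereas Fshr, Nr5a2 and Hsd3b1 overlapped between ages. Any part of follicle cells in the lower HA values of Ext2 and Hs6st1 below was not tested. None of 7 blood markers had a row.

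Ext2 (ENSMUSG00000027198.16), a subunit of the chain polymerase, was chosen for its age difference in input. Its input level was 877 and 833 CPM in the young pools and 23.2 and 46.2 CPM in the old pools. These values rest on 60392 and 31698 reads in young and 1263 and 2305 reads in old libraries. The mean was 855 ± 30.7 CPM (SD, n = 2 pools) in young and 34.7 ± 16.3 CPM (SD, n = 2) in old oocytes, 24.6-fold higher in young, and the pools of the 2 ages were far apart. In the young inputs Ext2 ranked 102 and 162 from the top of 10530 genes, and in the old inputs 4838 and 3440.

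The HA libraries, which the choice of Ext2 did not use but which come from the same pools, showed a different level. Ext2 stood at 9.65 and 23.0 CPM in the young and 7.60 and 2.40 CPM in the old HA libraries. The old values lay below the young ones, but the lower young pool was close to the higher old pool. Its mean was 16.3 ± 9.43 CPM (SD, n = 2) in young and 5.00 ± 3.68 CPM (SD, n = 2) in old oocytes. The log2 difference, old minus young on the log2(CPM + 1) scale, was -1.56 with a standard error of 1.51 and did not pass the test in limma after Benjamini-Hochberg correction for the whole HA table (adjusted p = 0.766). Ranks of Ext2 among the 8898 HA genes were 5680 and 3929 in young and 5438 and 5852 in old pools, so that its high place in the young inputs had no counterpart in ribosome-bound mRNA of the same pools.

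Ext1 (ENSMUSG00000061731.9, chr15:53064038-53346159 in GRCm38), the partner of Ext2 in the polymerase, had values of the same range at both ages. Its input level was 189 and 253 CPM in young and 186 and 359 CPM in old pools. In HA it was 194 and 117 CPM in young and 166 and 154 CPM in old pools. Young and old values overlapped in both fractions, and the log2 difference was 0.24 ± 0.37 (SE, limma, adjusted p = 0.960) in input and 0.09 ± 0.54 (SE, adjusted p = 0.978) in HA. Per kilobase of merged exons, Ext2 was 5.12 and 3.63 times Ext1 in the young inputs and 0.138 and 0.142 times Ext1 in the old inputs. In HA the same ratio was 0.0548 and 0.217 in young and 0.0506 and 0.0172 in old pools, so Ext2 was below Ext1 in each of the 4 HA libraries.

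Extl3 (ENSMUSG00000021978.8, chr14:65052060-65149855), which encodes the enzyme that starts the chain, had an input level of 157 and 129 CPM in young and 139 and 125 CPM in old pools. Its HA level was 125 and 76.1 CPM in young pools. The old pools fell on either side of these, at 263 and 34.3 CPM, and gave the widest HA spread of the 6 genes in CPM (149 ± 162 CPM, SD, n = 2). The log2 differences were -0.11 ± 0.32 (SE, limma, adjusted p = 0.982) in input and -0.03 ± 1.00 (SE, adjusted p = 0.998) in HA.

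**Figure D1:**
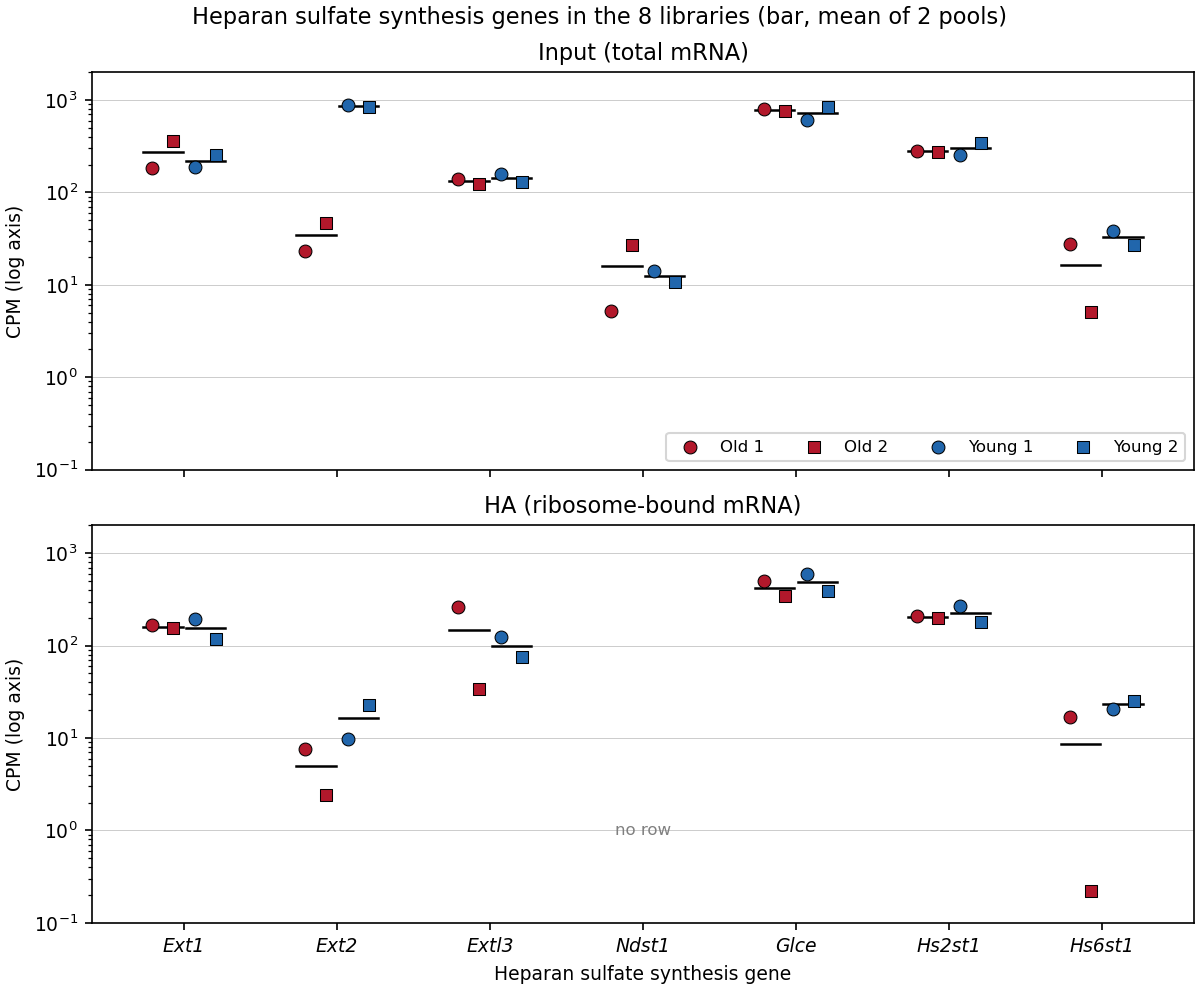
Level of each heparan sulfate synthesis gene in the 4 input (top) and 4 HA (bottom) libraries, in CPM on a log axis, with old pools in red, young pools in blue, circles for pool 1, squares for pool 2 and a bar at the mean of the 2 pools. Ext2 stands at 877 and 833 CPM in the young inputs and 23.2 and 46.2 CPM in the old inputs, while Ext1, Extl3, Glce and Hs2st1 overlap between ages.

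Among the modifying enzymes, Glce (ENSMUSG00000032252.14, chr9:62057248-62122655), the epimerase that turns glucuronic into iduronic acid, was the most abundant. It had 614 and 837 CPM in young and 797 and 762 CPM in old inputs. In HA it had 596 and 387 CPM in young and 499 and 343 CPM in old pools. The pools overlapped in both fractions, with log2 differences of 0.12 ± 0.25 (SE, limma, adjusted p = 0.975) in input and -0.21 ± 0.45 (SE, adjusted p = 0.920) in HA.

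Hs2st1 (ENSMUSG00000040151.9, chr3:144429706-144570181), the 2-O-sulfotransferase that acts on the epimerised residues, was at 252 and 347 CPM in young and 283 and 273 CPM in old inputs. Its HA level was 268 and 182 CPM in young and 210.1 and 201 CPM in old pools. The old pools lay between the young pools in both fractions. Log2 differences were -0.09 ± 0.28 (SE, limma, adjusted p = 0.983) in input and -0.11 ± 0.48 (SE, adjusted p = 0.971) in HA.

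Hs6st1 (ENSMUSG00000045216.7, chr1:36068400-36106446), a 6-O-sulfotransferase, was low and uneven between the old pools. Its input level was 38.1 and 27.1 CPM in young and 27.9 and 5.12 CPM in old pools. The HA level was 20.8 and 25.5 CPM in young and 17.0 and 0.222 CPM in old pools, the last of these resting on 6 reads. Both old HA values were below both young ones, and the second old pool was the lowest in both fractions. The log2 difference was -1.32 ± 0.90 (SE, limma, adjusted p = 0.845) in input and -2.36 ± 1.77 (SE, adjusted p = 0.670) in HA. Without the second old pool the differences were -0.20 in input and -0.41 in HA, and without the first old pool they were -2.44 and -4.30.

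Ndst1 (ENSMUSG00000054008.8), which replaces acetyl by sulfate groups on the chain, has an input row only. It stood at 14.3 and 10.7 CPM in young and 5.16 and 26.7 CPM in old pools, and the old pools lay on either side of the young ones. Its log2 difference was -0.03 ± 1.01 (SE, limma, adjusted p = 0.996). The annotated span of Ndst1 overlaps that of Rps14, a ribosomal protein gene that is in the input table, and reads in the shared stretch could not be told apart without strand.

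Each age difference was then read against all genes of its table. In input, limma passed 1 of 10530 genes (0.0095%) at an adjusted p under 0.05. Ext2 is that gene and was chosen by that difference, so nothing is read from this. An unadjusted p under 0.05 was found for 6.18% of all input genes and for none of the other 6 genes measured there. Both old inputs lay below both young inputs for 18.9% of all genes and above them for 16.4%, and among the 7 measured heparan sulfate genes this held for Ext2 (lower) and for none in the other direction. The median log2 difference was -0.09 over the 7 genes and -0.03 over all input genes. The likelihood ratio test of edgeR, run with the recovered reads as counts, passed 0.475% of all input genes and none of the 6 other than Ext2. The count in limma depended on single young pools, because 0 input genes passed without the first or without the second of them, where the difference of Ext2 was -4.62 and -4.70, while 2 genes passed with the first or with the second old pool left out.

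In HA, none of the 8898 genes (0%) passed an adjusted p of 0.05 in limma, and 14.7% had an unadjusted p under 0.05, against 0 of the 6 heparan sulfate genes. Both old HA libraries were below both young ones for 24.7% of all genes and above them for 17.2%. Of the 6 genes, Ext2 and Hs6st1 were lower in this sense and none was higher. The median log2 difference was -0.16 over the 6 genes and -0.14 over all HA genes, but this depended on the scaling. With libraries rescaled to the same sum the medians were -0.80 and -0.68, and after quantile normalization they were -0.75 and -0.054. Other runs turned the sign, with 0.051 and 0.047 under median-ratio scaling and 0.040 and 0.33 in DESeq2. The edgeR likelihood ratio test gave -0.18 and 0.12. With recovered reads as counts, the edgeR likelihood ratio test passed 3.32% of all HA genes, DESeq2 passed 508 genes and the edgeR quasi-likelihood test 0, and none of the 6 was among them. The count in limma hung on single pools, with 393 genes without the first old, 3 without the second old, 0 without the first young and 634 without the second young pool, again with none of the 6.

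**Figure D2:**
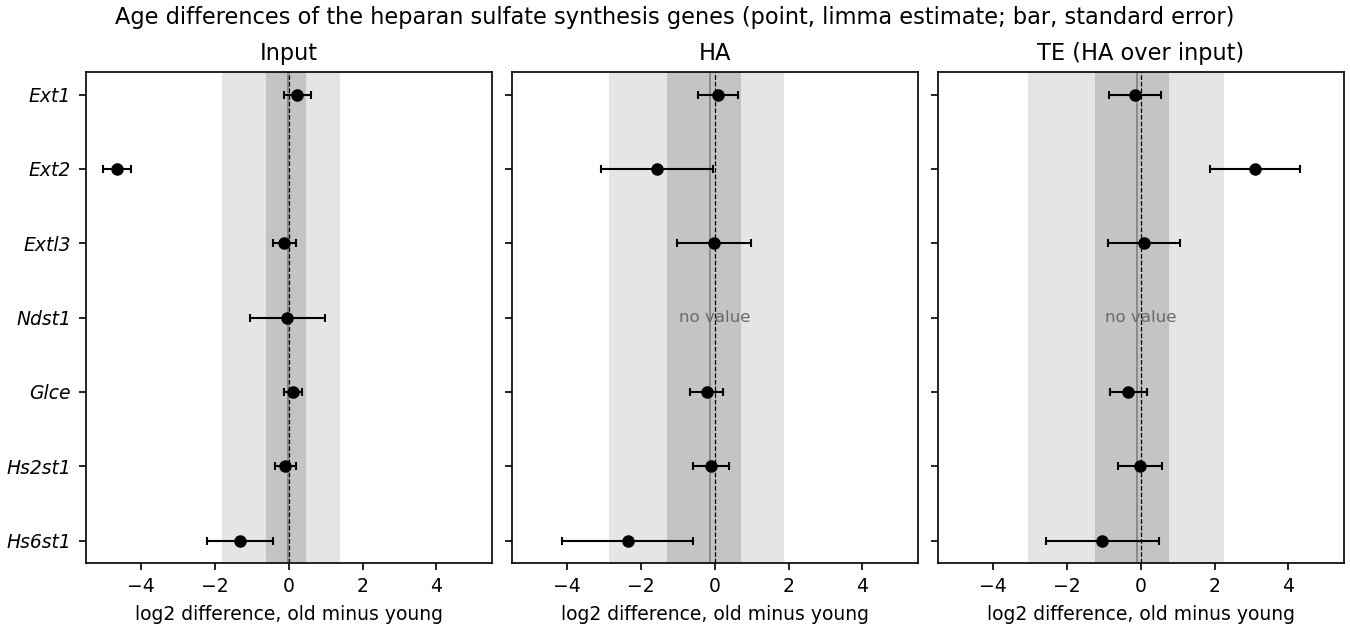
Log2 difference, old minus young, of each gene in input, in HA and in translation efficiency (TE), as the limma estimate (point) with its standard error (bar). The dark and pale bands hold the central 50% and 90% of all genes. Ext2 lies outside the pale band in input (-4.66) and in TE (3.10), and inside it in HA (-1.56).

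For the order of levels between genes, CPM were divided by the kilobases of merged exons of each gene. In young inputs the order was Ext2 (117 ± 4.19 CPM per kb, SD, n = 2), Glce (106 ± 23.1), Hs2st1 (36.4 ± 8.15), Ext1 (27.4 ± 5.64), Extl3 (23.6 ± 3.31), Hs6st1 (5.88 ± 1.40) and Ndst1 (1.51 ± 0.299). Ext2 and Glce overlapped, as did Hs2st1 with Ext1 and Ext1 with Extl3, so that 3 tiers stood apart above Ndst1. In old inputs Glce was at the top (114 ± 3.55 CPM per kb), followed by Hs2st1 (33.9 ± 0.905), Ext1 (33.7 ± 15.1) and Extl3 (21.7 ± 1.68). Ext2 (4.74 ± 2.22), Hs6st1 (2.98 ± 2.91) and Ndst1 (1.93 ± 1.84) followed and overlapped with each other.

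In HA the order per kilobase was led by Glce at both ages, with 71.9 ± 21.7 CPM per kb in young and 61.7 ± 16.1 in old pools (SD, n = 2 each). Hs2st1, Ext1 and Extl3 came next, at 27.4 ± 7.36, 19.2 ± 6.78 and 16.5 ± 5.65 in young pools, each overlapping its neighbour, and at 25.0 ± 0.822, 19.8 ± 1.01 and 24.5 ± 26.7 in old pools. Ext2 was the last of the 6 at both ages, with 2.23 ± 1.29 CPM per kb in young and 0.683 ± 0.502 in old pools. Hs6st1 came just before it, at 4.17 ± 0.597 in young and 1.56 ± 2.15 in old pools, and overlapped with Ext2 in the old pools. Reads were counted by the authors over whole gene spans, introns included, and exons made up 4.54% of the span of Ext2, 2.86% of that of Ext1 and 10.4% of that of Glce. Per kilobase of the whole span, Glce rather than Ext2 was at the top in young inputs, and Ext2 was last in old inputs. In young pools Hs6st1 then stood above Ext1, at 0.857 against 0.783 CPM per kb in input and 0.608 against 0.551 in HA. The tiers above thus hold per kilobase of exons only.

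Translation efficiency (TE) was taken as HA CPM over input CPM of the same pool, since both fractions came from 1 lysate. HA and input were scaled in separate tables, so a TE is relative to the other genes of its pool. For Ext2 it was 0.0110 and 0.0276 in the young and 0.328 and 0.0520 in the old pools. The median over all genes was 0.729 and 0.724 in the young and 0.687 and 0.572 in the old pools. Ext2 was thus among the lowest genes in young oocytes, 23 from the bottom of 8535 genes in the first and 254 from the bottom of 8519 in the second young pool. It was nearer to the middle in old oocytes, 2826 of 8483 and 1907 of 8467. The difference in log2 TE, old minus young, was 3.10 with a standard error of 1.23. It contains the input values by which Ext2 was chosen and is not tested here. Leaving out 1 pool moved it to between 1.95 (without the first old pool) and 4.25 (without the second old pool).

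The other 5 genes measured in both fractions had TE values above those of Ext2 in both young pools. Ext1 had a TE of 1.03 and 0.461 in young and 0.893 and 0.430 in old pools. Hs2st1 had 1.06 and 0.526 in young and 0.742 and 0.735 in old pools. Glce had 0.970 and 0.462 in young and 0.626 and 0.451 in old pools. For these genes the second young pool was lower than the first, and young and old values overlapped for each of the 3. Extl3 spanned 0.791 and 0.589 in young and 1.89 and 0.275 in old pools. Hs6st1 was at 0.546 and 0.939 in young and 0.610 and 0.0433 in old pools. For TE, 0 of the 8537 genes in both tables (0%) passed an adjusted p of 0.05 in limma, rising to 13 without the first old and 2 without the first young pool, while 6.49% had an unadjusted p under 0.05. None of the 5 genes other than Ext2 had one, and their adjusted p ran from 0.905 for Hs6st1 to 0.997 for Hs2st1. Old TE lay below young TE in all pools for 22.8% and above it for 16.7% of the genes with a ratio in each pool, but in none of these 5 genes.

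**Figure D3:**
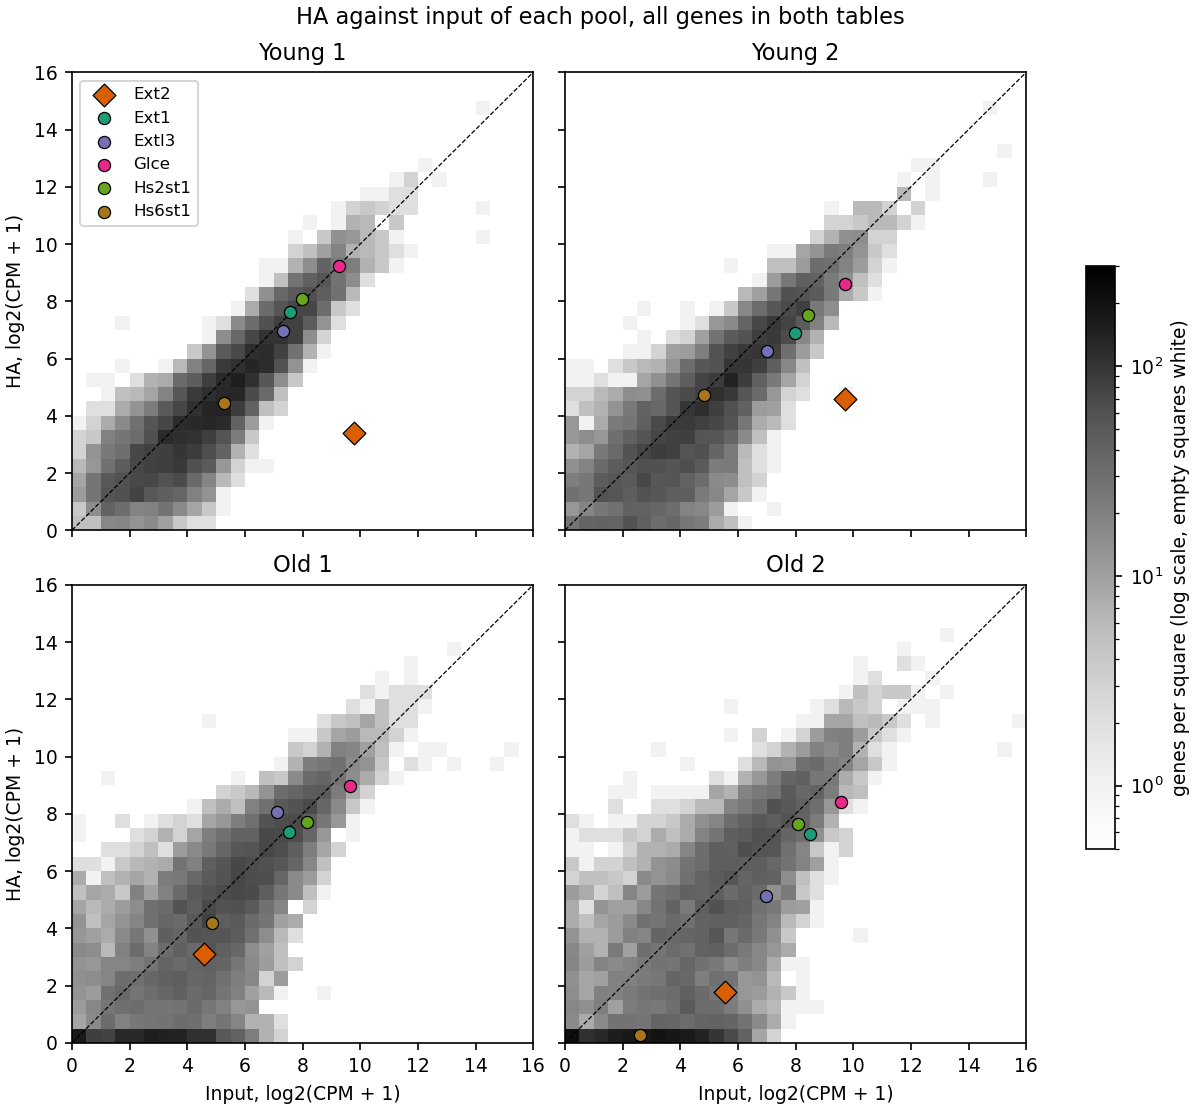
HA against input of each pool, both in log2(CPM + 1), with the number of genes per square in grey on a log scale, the line of equal values dashed and the 6 heparan sulfate genes in colour. In both young pools Ext2 (diamond) lies below and to the right of the body of genes, with a TE of 0.0110 and 0.0276, whereas the other 5 genes lie within it.

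The study concerns CPEB1, which binds cytoplasmic polyadenylation elements (CPEs), short U-rich motifs in 3′-UTRs that govern when oocyte mRNAs are translated. The letters TTTTAT and TTTTAAT, neither of which contains the other, were searched on the transcript strand in the last 300 bases of the longest 3′-UTR of a protein-coding transcript (GENCODE M21, GRCm38). At least 1 match was present in 39.8% of 8550 genes with such a window. Among the 7 measured heparan sulfate genes, Ext1 held 1 match and Glce held 2, and these 3 sites are shown because they are all the matches found in the 7 genes. They are written 5′ to 3′ on the minus strand with the motif in capitals.

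Ext1, chr15:53064111-53064138: aagatagattgTTTTATagagtgtcacc
Glce, chr9:62057366-62057393: gcacatgttagTTTTATatacagcaaaa
Glce, chr9:62057249-62057276: taaaataaagtTTTTATctcgaaaagaa

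The Ext1 motif ends 84 bases before the annotated 3′ end and the Glce motifs end 129 and 12 bases before it. Ext2, Extl3, Ndst1, Hs2st1 and Hs6st1 had no match, which says only that these letters are not in that window. Ext1 and Glce had log2 TE differences within their standard errors, at -0.15 ± 0.70 (SE) and -0.33 ± 0.51 (SE). Without a match, Hs2st1, Extl3 and Hs6st1 did too, at -0.02 ± 0.60, 0.09 ± 0.97 and -1.04 ± 1.52 (SE). Ext2, also without a match, was at 3.10 ± 1.23 (SE), which contains the input values by which it was chosen.

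Ext2 lies on the minus strand of chromosome 2 (GRCm38, chr2:93661028-93822568), with 12 annotated transcripts and 7328 bases of merged exons in a span of 161541 bases. Annotated spans of Alx4 and Gm13818 overlap it over 12.9% of its length and neither has an input row, so their reads could not be set beside those of Ext2. The nearest genes with a row were described in the same way, and none of them passed an adjusted p of 0.05 in limma in input or HA. Accsl, 32.8 kb away, had input levels of 530.1 and 555 CPM in young and 696 and 764 CPM in old pools, a log2 difference of 0.43 ± 0.23 (SE, limma, adjusted p = 0.790). In HA, Accsl had 533 and 345 CPM in young and 1716 and 1168 CPM in old pools, a log2 difference of 1.72 ± 0.42 (SE, limma, adjusted p = 0.297). Its TE was 1.01 and 0.621 in young and 2.47 and 1.53 in old pools, so that both old pools were above both young pools in all 3 measures. Hsd17b12, which encodes a fatty acid elongation enzyme and lies 210.1 kb away, had 14.6 and 7.46 CPM in young and 19.6 and 28.3 CPM in old inputs. Ttc17, 478 kb away, had 92.4 and 60.8 CPM in young and 53.2 and 55.9 CPM in old inputs. On the other side, Tspan18 had 0.871 and 0.762 CPM in young and 1.89 and 37.6 CPM in old inputs. Syt13 and Slc35c1 overlapped between ages in input. In HA, Slc35c1 had 24.9 and 12.8 CPM in young and 10.5 and 0.665 CPM in old pools.

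The 5 genes whose profile over the 8 libraries was most like that of Ext2 were found by the root mean square distance between log2(CPM + 1) profiles, each centred within HA and within input. They were Ccdc175 (distance 0.773), Sgpp2 (0.779), Basp1 (0.857), Syndig1 (0.867) and Prkaa2 (0.884), the last of which encodes a catalytic subunit of AMP-activated protein kinase. All 5 were rare beside Ext2. Ccdc175 had 11.7 and 11.8 CPM in young and 0.386 and 1.54 CPM in old inputs, and Prkaa2 had 22.1 and 14.5 CPM in young and 2.06 and 4.21 CPM in old inputs. Their young TE was higher than that of Ext2, at 0.138 and 0.229 for Ccdc175 and 0.176 and 0.709 for Prkaa2. As these genes were picked for their likeness, their age differences are a description.

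Beyond the 9 genes, 73 genes of heparan sulfate and its relatives were listed by role, of which 38 had an input row and 27 had an HA row. None passed an adjusted p of 0.05 in limma in input (smallest 0.778) or in HA (smallest 0.311). At an unadjusted limma p under 0.05 there were 2 in input (Extl1 and Slc35d1) and 4 in HA (Extl1, Hs3st3b1 and Gpc3 among them). All had the lower level in old oocytes. Over all genes, 366 of 10530 were lower at that threshold in input and 930 of 8898 in HA. In either direction the shares of all genes were 6.18% in input and 14.7% in HA. Which of the 27 HA genes passed an adjusted p of 0.05 changed with single pools. DESeq2 passed 1 of the 38 in input (Slc35d1) and 1 of the 27 in HA (Agrn). Over all genes it passed 114 of 10530 in input and 508 of 8898 in HA. In input, both old pools were below both young pools for 9 of 38 genes and above them for 1, against 18.9% and 16.4% of all genes. In HA they were below for 9 of 27 genes and above for 4, against 24.7% and 17.2% of all genes. Their median log2 difference was -0.17 in input and -0.48 in HA, against -0.03 and -0.14 over all genes. In HA it was 0.17 in both edgeR tests and 0.33 in DESeq2, where all genes were at 0.12 and 0.33. It was -0.099 after quantile normalization and -1.01 with libraries rescaled to the same sum. Values are given below for genes among the 18 with a mean of at least 10 CPM in input.

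The chain is started on a linker of 4 sugars, and of its 7 enzymes only Xylt1, a xylosyltransferase that attaches the first sugar to the core protein, was measured. In input Xylt1 had 39.0 and 40.5 CPM in young and 42.8 and 26.1 CPM in old pools. In HA it had 8.84 and 6.06 CPM in young and 58.9 and 41.2 CPM in old pools. Input overlapped between ages, whereas both old HA values were above both young ones. The HA log2 difference was 2.59 ± 1.18 (SE) and did not pass the adjustment (adjusted p = 0.369 from limma). Its TE was 0.227 and 0.150 in young and 1.38 and 1.58 in old pools, a log2 difference of 2.83 ± 1.22 (SE, limma, adjusted p = 0.739).

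Of 12 further chain enzymes, 7 had an input row and only Hs3st5, a 3-O-sulfotransferase, reached 10 CPM. It had 24.9 and 16.1 CPM in young and 52.7 and 11.5 CPM in old inputs. Extl1, a relative of the EXT polymerases, was named after its values were seen because it had an unadjusted p under 0.05 in input and in HA. Its input level was 5.28 and 7.46 CPM in young and 0.827 and 0.0201 CPM in old pools, the last of which is a single read. In HA it had 4.36 and 1.02 CPM in young and 0.0238 and 0.0370 CPM in old pools, which is also 1 read each. The log2 differences of -2.42 ± 0.89 (SE, limma, adjusted p = 0.778) and -1.68 ± 0.63 (SE, adjusted p = 0.313) did not pass.

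Among enzymes that edit or cleave finished chains, all 4 listed genes had an input row. Sulf2, an endosulfatase that removes 6-O-sulfates outside the cell, had 178 and 208 CPM in young and 274 and 325 CPM in old inputs. Both old pools were higher, by a log2 difference of 0.63 ± 0.28 (SE, limma, adjusted p = 0.778), while its HA level of 81.7 and 67.3 CPM in young and 139 and 28.3 CPM in old pools overlapped. Hpse, the heparanase that cuts the chain, ran the other way, with 15.7 and 18.3 CPM in young and 8.75 and 8.95 CPM in old inputs, and with 16.8 and 27.6 CPM in young and 8.39 and 2.85 CPM in old HA libraries (adjusted p = 0.915 in input and 0.676 in HA, limma). Hpse2 overlapped in input, with 6.92 and 17.0 CPM in young and 4.70 and 17.9 CPM in old pools.

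Of 15 core proteins, 9 had an input row. A higher mean log2 level in old pools was found for 6 of these, against 5116 of all 10530 input genes. Sdc1, a transmembrane syndecan, was the most abundant, with 94.2 and 112 CPM in young and 83.4 and 216 CPM in old inputs and 193 and 151 CPM in young and 197 and 211 CPM in old HA libraries. Srgn, the secretory granule proteoglycan, had 69.0 and 60.8 CPM in young and 81.1 and 57.3 CPM in old inputs. Tgfbr3 had 40.2 and 36.1 CPM in young and 60.6 and 39.0 CPM in old inputs, and Gpc3, a glypican held by a lipid anchor, had 20.9 and 2.39 CPM in young and 13.5 and 26.6 CPM in old inputs. None of the 9 was separated by age in input. In HA, Gpc3 had 2.37 and 1.53 CPM in young and 0.0713 and 0.185 CPM in old pools (log2 difference -1.37 ± 0.51, SE, limma, adjusted p = 0.313).

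Supply of sugar nucleotides and of the sulfate donor was represented by 6 of 11 genes in input. Uxs1, which makes UDP-xylose, had 109.6 and 91.8 CPM in young and 110.5 and 78.9 CPM in old inputs. Ugp2, which makes UDP-glucose, had 6.39 and 22.4 CPM in young and 10.1 and 25.8 CPM in old inputs. Slc35b3, a carrier of the sulfate donor PAPS, had 7.08 and 23.4 CPM in young and 3.91 and 6.68 CPM in old inputs. Uxs1 and Ugp2 overlapped between ages, and the old values of Slc35b3 lay just below the young ones. Papss1, which makes PAPS, had 21.0 and 30.8 CPM in young and 20.8 and 7.84 CPM in old inputs, and 35.9 and 19.2 CPM in young and 46.3 and 46.0 CPM in old HA libraries. Slc35d1, a UDP-sugar carrier of the endoplasmic reticulum, was named after its values were seen because it had an unadjusted p under 0.05 in input, where it stood at 7.94 and 17.0 CPM in young and at 0 and 0.261 CPM in old pools (log2 difference -3.50 ± 0.94, SE, limma, adjusted p = 0.778).

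Lysosomal enzymes that take the chain apart were measured for 5 of 9 genes in input. Idua, the iduronidase, had 18.6 and 25.2 CPM in young and 5.83 and 16.6 CPM in old inputs. Of 15 enzymes of chondroitin chains, which share the linker with heparan sulfate, 6 had an input row. Chsy1, a chondroitin polymerase, had 139 and 68.1 CPM in young and 64.0 and 98.2 CPM in old inputs. Chst11, a 4-O-sulfotransferase, had 92.2 and 127 CPM in young and 87.2 and 70.5 CPM in old inputs, and Dse, an epimerase, had 18.3 and 20.2 CPM in young and 11.4 and 11.5 CPM in old inputs. Chst11 and Dse were lower in both old inputs, with adjusted p of 0.896 and 0.932 from limma.

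**Figure D4:**
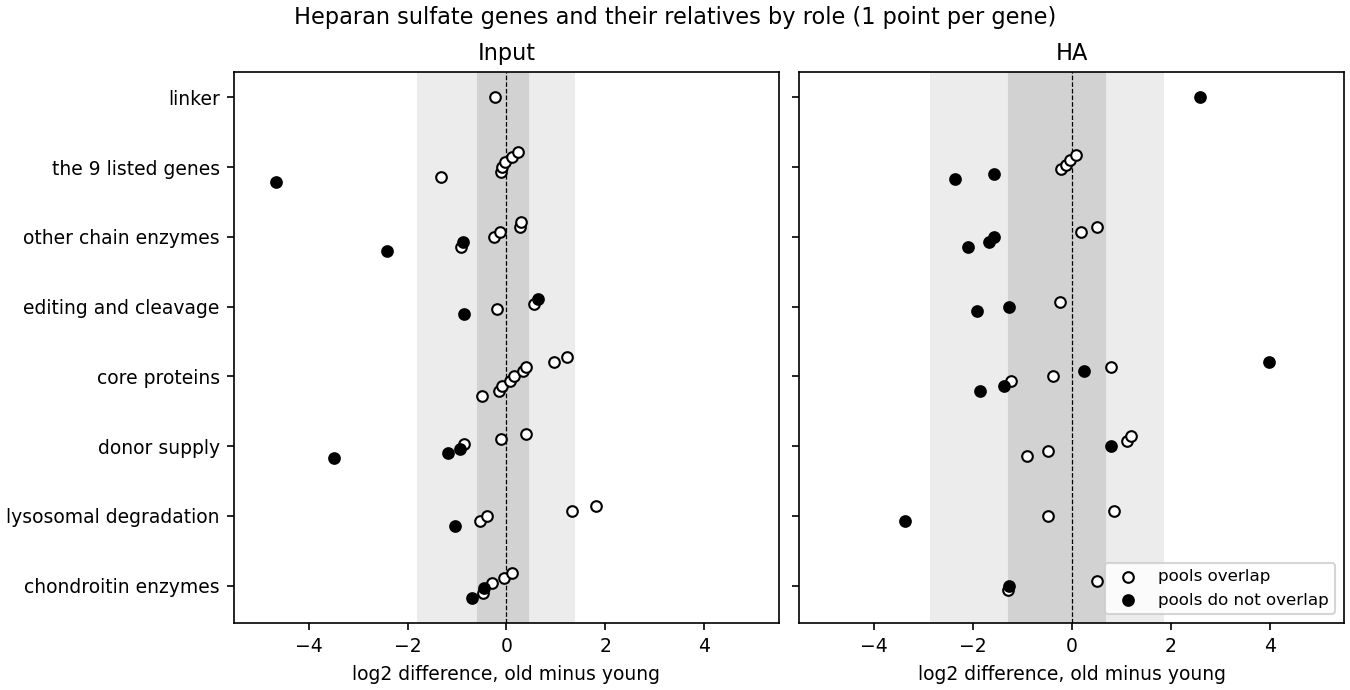
Log2 difference, old minus young, in input (left) and HA (right) for each measured gene by role, with filled points where both old pools were on the same side of both young pools and open points where they overlapped. The dark and pale bands hold the central 50% and 90% of all genes. Ext2 at -4.66 in input is the point farthest from 0 in either panel, and Xylt1 at 2.59 is the only linker gene.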

How the data were processed

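RNA-Seq was analysed for 8 libraries, an HA and an input library from each of 4 pools. The authors trimmed reads with Trimmomatic 0.36, aligned them to GRCm38 with HISAT2, counted them with HTSeq over whole genes of GENCODE M11 without regard to strand, and scaled the counts with the TMM method of edgeR for HA and input apart. The deposited signal values are the resulting CPM. All per-sample columns were used (0 left out). Dividing by the CPM that 1 read is worth gave whole reads for 100% of values (tolerance 0.05 reads). The stated cutoff of 10 CPM in 2 or more libraries was tried only as an alternative, because rarer genes are present in the tables. Precision is set by the read totals given in the Results and by having 2 pools per age.

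Old and young pools were compared with limma (lmFit, then eBayes with an intensity trend) after log2(CPM + 1) transformation. Tests were two-sided, and p-values were corrected by Benjamini and Hochberg within each whole table, with a threshold of 0.05. This scale understates changes of rare genes. Because both fractions derive from 1 lysate, TE was tested per pool as log2(HA CPM + 1) minus log2(input CPM + 1), while printed TE values are plain ratios. An exact permutation of 2 pools against 2 cannot reach a two-sided p below 0.333. The labels number old and young pools alike without saying what a number stands for, so ages were not paired. The 9 genes, role lists and marker lists were chosen with earlier results of these data known. Named genes were the 9, listed relatives at a mean of at least 10 CPM in input, the 3 nearest measured neighbours of Ext2 on each side and the 5 most similar profiles. The values of 1 listed relative are not reported here. Gene spans and 3′-UTRs came from GENCODE M21, which holds 99.8% of the gene identifiers. Alternatives were count tests on recovered reads (edgeR 4.0.16, DESeq2 1.42.0), pseudocounts of 0.1 and 5 CPM, other scalings, the cutoff above, a replicate block and omission of each pool. The code was tested on simulated data and ran in R 4.3.3 with limma 3.58.1, and in Python 3.11.15 using pandas 2.3.3, numpy 2.4.6 and matplotlib 3.10.9.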

Additional observations from a re-analysis of the deposited data

Results flagged for a closer look

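Papss1, which makes the sulfate donor PAPS, was set apart because its old and young pools did not overlap in either fraction and lay in opposite directions. Its log2 difference, old minus young, was -0.93 in input and 0.79 in HA. The log2 TE difference, made of these values, was 1.72 (standard error 1.32) and did not pass (adjusted p = 0.803 from limma). As Papss1 was picked for this pattern, the value describes it and is no test of it. How many of all genes met the same rule was not counted. The highest old and the lowest young input value were 20.8 and 21.0 CPM. None of the 6 heparan sulfate genes measured in both fractions met this criterion.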

How the results depend on the processing

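In alternative runs the input difference of Ext2 lay between -4.85 and -4.50, or -5.14 and -4.18 when a pool was left out. Ext2 was chosen by this difference, with its pools far apart, and could not change sign in these runs, which describe size only. Its HA difference lay between -2.10 and -0.80 (adjusted p 0.568 to 0.904), or -2.23 and -0.89 without a pool, and no value exists under the cutoff of 10 CPM, where Ext2 was not tested in HA. Its TE difference, which contains the same input values, lay between 2.75 and 4.01, or 1.95 and 4.25 without a pool. Counts of genes past an adjusted p of 0.05 moved most. In input the count was 1 in limma, 114 in DESeq2, 50 in the edgeR likelihood ratio test, 0 in the edgeR quasi-likelihood test and 0 without a trend, and 0 to 2 without a pool. In HA it was 0 in limma, 508 in DESeq2, 295 in the likelihood ratio test, and 0 to 634 without a pool. For TE it was 0, and 0 to 13 without a pool. With the replicate number as a block, 9 genes passed in HA and 5 in TE. In input 1 gene passed, Ext2, which was chosen by that difference. Same-numbered old and young pools deviated with r = 0.0786 in HA and 0.0269 in input, so the block rests on a number only. With an adjusted p of 0.803 under the block, Ext2 in HA also did not pass.

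Small differences changed sign, and the cause was not tested. In input, Ndst1 was 0.37 in DESeq2, 0.35 in both edgeR tests, 0.045 with 5 CPM added and 0.032 after quantile normalization, and Glce was -0.069 with libraries scaled to the same sum and -0.043 after quantile normalization. In HA, Ext1 was -0.55 with the same sum and -0.48 after quantile normalization. Extl3 in HA was 0.74 in DESeq2, 0.57 in both edgeR tests, 0.18 under median-ratio scaling and 0.0030 with 5 CPM added, and Hs2st1 in HA was 0.090 in DESeq2 and 0.10 under median-ratio scaling. In TE, median-ratio scaling gave 0.036 for Ext1 and 0.17 for Hs2st1, and Extl3 was -0.35 with the same sum and -0.13 after quantile normalization. Leaving out a pool gave, in input, -0.23 to 0.71 for Ext1, -0.26 to 0.028 for Extl3, -1.12 to 1.05 for Ndst1, -0.32 to 0.14 for Hs2st1 and -0.10 to 0.34 for Glce. In HA it gave -0.28 to 0.45 for Ext1, -1.48 to 1.43 for Extl3, -0.38 to 0.17 for Hs2st1 and -0.52 to 0.10 for Glce. In TE it gave -0.73 to 0.42 for Ext1, -1.29 to 1.46 for Extl3, -0.52 to 0.49 for Hs2st1 and -0.87 to 0.20 for Glce. Of all genes at an unadjusted p under 0.05 in HA, 381 were higher and 930 lower in old pools, against 112 and 1283 with the same sum and 375 and 162 with the cutoff of 10 CPM. In input these were 285 and 366, against 179 and 537 with the same sum and 248 and 130 with the cutoff.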
